A study of Mus musculus with 2 samples.

Results

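The IL-6 family of cytokines was examined in mouse embryonic fibroblasts taken through induced adipogenesis, the formation of fat cells. The family was taken as 10 genes listed by name: the ligands Il6, Il11, Lif and Osm, the receptor subunits Il6st, Il6ra, Il11ra1, Lifr and Osmr, and the feedback inhibitor Socs3. Of the 10, 9 were found among the 16637 named genes of the array, through 11 of its 29922 gene probes, and Il11ra1 was not found under that name in the platform annotation used here. The genes were chosen by name as parts of the pathway, with their differences between day 3 and day 0 on these arrays already known, so the values below describe the genes and support no test.

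All cells were labelled as Xbp1 knockout, and the product of Xbp1 is a transcriptional activator that serves the unfolded protein response. Day 0 was the day of confluence, and day 3 followed 72 h of induction. The inducing medium held insulin at 10 µg/ml, the PPARγ agonist troglitazone at 5 µM, DXM also at 5 µM, and, at 0.25 mM, IBMX, which blocks breakdown of cAMP. Each day was 1 single-colour array, the day 0 cells carried the same deletion, and no comparison with Xbp1-intact cells was made. There was therefore no replicate culture, no test and no p-value. The labels do not say whether the cells came from 1 embryo or several.

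Cytokines of this family signal through gp130, the receptor chain encoded by Il6st. IL-6 and IL-11 first bind their own receptor subunits, encoded by Il6ra and Il11ra1, whereas LIF and oncostatin M signal through gp130 paired with the products of Lifr and Osmr. Ligand binding activates Janus kinases bound to the receptor, which phosphorylate the transcription factor STAT3, and SOCS3, itself a product of STAT3 activity, binds gp130 and shuts the signal down. Stromal cells of fat tissue release IL-6, and IL-11 is known for restraining the conversion of fibroblast-like cells to fat cells.

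The promoter sequences of Il6, Il11 and Socs3 are shown because Il6 and Il11 had the largest differences of the family and Socs3 is its feedback gene. They come from RefSeq (build GRCm38.p6) and run from 250 bases before to 50 bases after an annotated start, 5′ to 3′ on the strand of the gene. For Il11, which has 2 annotated starts in the table, both windows are shown, since the transcript its probe reads is not given. Capitals mark matches, on either strand, to 4 motifs: the STAT palindrome TTCNNNGAA, an NF-κB motif (GGGA, any 4 bases, then CC), the core TGACG of the cyclic AMP response element and the TATA box TATAAA.
Il6, chr5:30012864-30013163, plus strand: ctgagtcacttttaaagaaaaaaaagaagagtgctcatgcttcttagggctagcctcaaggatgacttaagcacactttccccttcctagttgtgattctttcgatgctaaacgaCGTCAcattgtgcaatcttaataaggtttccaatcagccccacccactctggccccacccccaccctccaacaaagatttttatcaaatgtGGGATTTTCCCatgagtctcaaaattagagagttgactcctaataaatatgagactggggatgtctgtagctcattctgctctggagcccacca
Il11, chr7:4782808-4783107, minus strand: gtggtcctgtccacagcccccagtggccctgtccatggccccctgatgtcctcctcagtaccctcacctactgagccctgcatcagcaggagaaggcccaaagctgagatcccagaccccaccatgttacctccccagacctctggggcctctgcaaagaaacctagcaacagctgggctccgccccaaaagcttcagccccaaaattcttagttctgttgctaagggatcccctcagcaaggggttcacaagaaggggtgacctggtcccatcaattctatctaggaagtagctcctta
Il11, chr7:4778092-4778391, minus strand: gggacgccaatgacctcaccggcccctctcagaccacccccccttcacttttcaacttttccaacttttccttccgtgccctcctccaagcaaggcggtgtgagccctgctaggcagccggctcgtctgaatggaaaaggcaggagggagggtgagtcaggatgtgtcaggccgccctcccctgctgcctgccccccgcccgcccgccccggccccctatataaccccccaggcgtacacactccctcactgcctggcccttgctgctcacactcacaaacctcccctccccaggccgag
Socs3, chr11:117969317-117969616, minus strand: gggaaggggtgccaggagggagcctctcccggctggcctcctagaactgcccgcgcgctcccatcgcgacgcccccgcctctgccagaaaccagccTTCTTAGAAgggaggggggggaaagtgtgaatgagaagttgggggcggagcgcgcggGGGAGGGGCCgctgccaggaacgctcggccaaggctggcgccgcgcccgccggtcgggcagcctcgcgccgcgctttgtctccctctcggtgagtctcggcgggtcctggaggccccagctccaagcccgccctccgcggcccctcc

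The table held windows for 9 of the 10 genes, 12 windows in all. The capitals in the Il6 window are an NF-κB match at positions -44 to -35 from the start, which also reads as a match on the other strand one base further on, and a cyclic AMP core at -135 to -131. The Socs3 window held the only STAT palindrome of the 12 windows, at -154 to -146, and an NF-κB match at -97 to -88. Neither Il11 window held any of the 4 motifs, which says only that these letters are not in these windows. NF-κB matches were found in 8 of the 12 windows, those of 7 genes, namely Il6, Lif, Il6ra, Il11ra1, Lifr, Osmr and Socs3, and a cyclic AMP core was found in those of Il6 and Il6ra. Among all 32851 windows of this length, 8.3% held the STAT palindrome, 20.7% the NF-κB motif, 20.8% the cyclic AMP core and 13.6% the TATA box, which no window of the family held as TATAAA. The NF-κB motif is made mostly of G and C. All family windows but that of Il6 (44.0% G and C) lay above the 52.7% median of all windows, up to 81.3% for Lifr. Windows of like base content were not compared, so nothing is read from the family's matches beside these shares. A match is a string of letters and was not tested as a binding site.

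Some genes of the family are also neighbours in the genome, whereas Il6, Il11, Il6ra, Il11ra1 and Il6st each lie on a different chromosome. Osm and Lif lie next to each other on chromosome 11, with 0 annotated genes between them, and Osmr and Lifr lie together on chromosome 15, with 3 annotated genes between them, 0 of which are protein coding. On day 3 Lifr was lower while Osmr read nearly the same on both days, and Lif, below the detection threshold on both, gave no difference to set beside that of Osm.

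Signals are quantile-normalized intensities. The detection threshold was set at 122, the middle value of the gene probes, and a gene counted as detected if either day lay above it. Of the 9 genes on the array, 7 were detected, all of them on both days, and 2, Lif and Il6ra, were below the threshold on both. Of the 7, Il6 and Il11 stood at least 2-fold higher on day 3 (2 genes) and Lifr at least 2-fold lower (1 gene). Over all 10656 detected genes, 12.8% were at least 2-fold higher and 10.3% at least 2-fold lower. Raising every signal below the threshold to its value gave the family counts of 2 and 1 again, beside 10.2% and 8.51% of all detected genes. Because the family was listed with this comparison known, nothing is read from the difference between these shares. The median log2 difference, day 3 minus day 0, was 0.62 for the 7 genes and 0.03 for all detected genes. The 0.62 is the value of the brighter Il6st probe, and with the mean of both Il6st probes the median was 0.50. The arrays differed in brightness before normalization, with a median gene probe intensity of 78 on day 0 and 166 on day 3, and the part of this in the values below was measured only through the other scalings. Probes differ in how brightly they read, so signals are compared between days and not between genes.

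**Figure D1:**
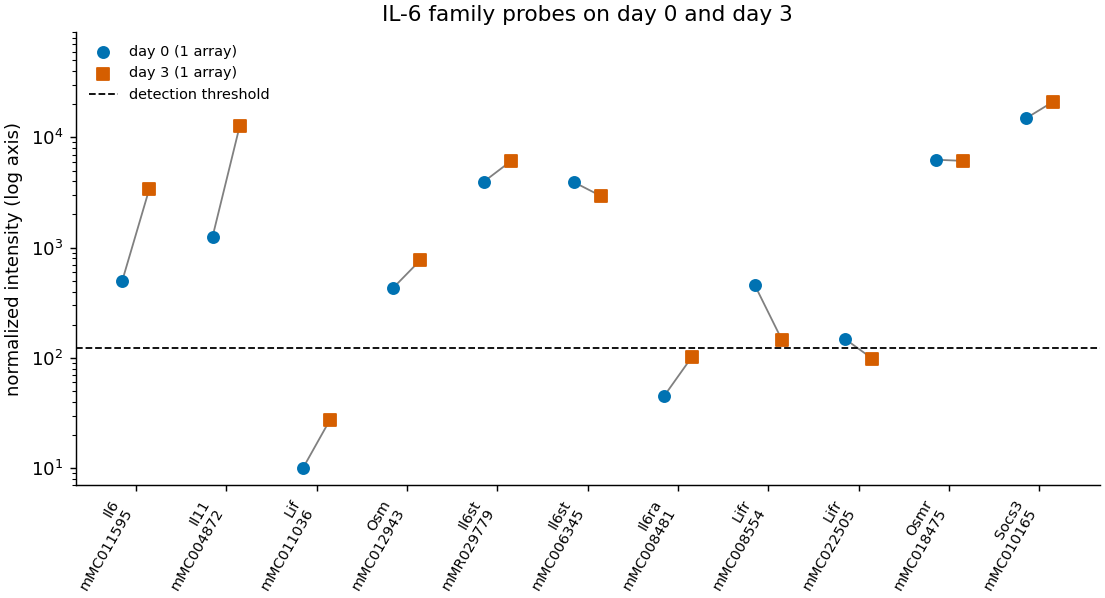
Normalized intensity (log axis) of the 11 probes of the family on day 0 (circles) and day 3 (squares), 1 array each, with the detection threshold of 122 as a dashed line. The Il6 and Il11 probes have the steepest lines, the pair of Il6st probes slope in opposite directions, and Lif and Il6ra lie below the threshold on both days.

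Among the ligands, Il11 had the largest difference. Its signal (probe mMC004872) was 1262 on day 0 and 12705 on day 3. The day 3 signal was 10.1-fold higher, a log2 difference of 3.33. That was the 9th highest difference among the 9360 genes that were above the threshold and unsaturated on both days. Repeated spots of control features gave a technical SD for a difference between days of 0.39 at this signal from the median feature, and 0.57 pooled over features, and this error covers scatter between spots only. The Il11 difference exceeded both. Its raw intensities were 1033 and 14534.

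Il6, which encodes the founding cytokine of the family, was likewise higher on day 3. Its signal (probe mMC011595) was 500 on day 0 and 3420 on day 3. The fold was 6.84 and the log2 difference 2.77, against a technical SD of 0.39 from the median feature and 0.57 pooled, and it ranked 29th highest of the same 9360 genes. The raw intensities were 384 and 3916, and both days read far above the 99th percentile of empty spots, 11 on day 0 and 13 on day 3. By Euclidean distance between log2 signals over the 2 arrays, the 3 detected genes nearest to Il6 were 6820408C15Rik (distance 0.23, signals 587.5 and 3410), Pld1, which encodes a phospholipase D (0.23, 576 and 3696.5), and Fbxo32, which encodes a ubiquitin ligase subunit (0.24, 576 and 3729.5). With 2 arrays this likeness is only a match of a pair of signals.

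Osm, which encodes oncostatin M, read 433 on day 0 and 772 on day 3. The log2 difference of 0.83 was below 2-fold and lay just above the pooled technical SD of 0.78. Lif read 10, the floor set for low signals, on day 0 and 27.5 on day 3. Both are below the threshold, so no fold is given. Its raw intensity of 1 on day 0 lay within the range of empty spots and that of 41 on day 3 above their 99th percentile. Of 823 probes for olfactory, vomeronasal and taste receptors, taken as a measure of non-specific signal, 10% read above 95 on day 0 and above 174.2 on day 3, so Lif lay below that level on both days.

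The receptor chains differed less than Il6 and Il11. The shared chain Il6st had 2 probes, and they disagreed in direction. The brighter (mMR029779) read 3958 and then 6091, a log2 difference of 0.62, and the other (mMC006345) read 3920 and 2933, a difference of -0.42. In size both differences lay above the technical SD of the median feature, 0.38 for the first probe at its signal and 0.39 for the other. Both lay within the pooled SD, 0.89 for the first and 0.57 for the other. With their mean standing for the gene the difference was 0.10. The probes of Il6st therefore gave no common direction, and which transcripts each one reads was not analysed here.

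Lifr, which encodes the LIF receptor, was the only detected member at least 2-fold lower on day 3. Its brighter probe (mMC008554) read 456.5 on day 0 and 145.5 on day 3. The day 3 signal was 3.14-fold lower, a log2 difference of -1.65, larger than the pooled technical SD of 0.78. The other probe (mMC022505) read 148 and 98.5, a difference of -0.59 in the same direction, less than 2-fold, with its day 3 signal below the threshold. In size that difference lay above the technical SD of the median feature, 0.42, and within the pooled SD of 0.61. The raw intensities of this probe were 96 and 134, higher on day 3, so its direction depended on the scaling. The mean of both probes gave -1.12. The day 3 signal lay close to the threshold by both probes.

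Osmr, the chain that pairs with gp130 for oncostatin M, read 6279 on day 0 and 6131 on day 3. The log2 difference of -0.03 was smaller than the technical SD of 0.38. Il6ra, which encodes the IL-6 binding receptor, read 45.5 and 101, both below the threshold, so no fold is given. Before normalization it read 20 and 137, above the 99th percentile of empty spots on both days, and its normalized signals lay below the level that 10% of the olfactory, vomeronasal and taste receptor probes exceeded.

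Socs3, the inhibitor that acts on gp130, was bright on both days. The array read 14900 for it on day 0 and 21058 on day 3. The log2 difference of 0.50 was 1.41-fold and lay above the technical SD of the median feature, 0.38, and within the pooled SD of 0.89. Neither signal was saturated, with raw intensities of 12814 and 24074 against a limit near 65000.

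**Figure D2:**
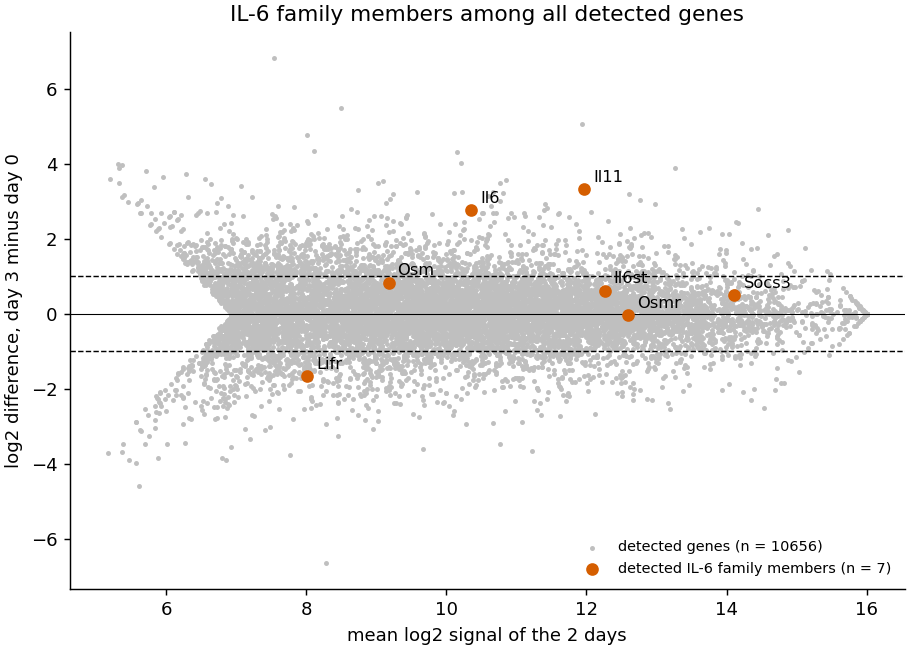
Log2 difference, day 3 minus day 0, against the mean log2 signal of both days for 10656 detected genes (grey) and the 7 detected members of the family (orange), with dashed lines at 2-fold. Il11 and Il6 lie above the upper line, Lifr below the lower one, and Osm, Il6st, Socs3 and Osmr between them.

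The choice of scaling between the arrays moved the values. Over 4 other scalings the log2 difference ran from 2.72 to 3.81 for Il11 and from 2.26 to 3.35 for Il6, at least 2-fold in all 4 for both. For Osm it ran from 0.42 to 1.51, above 0 in all 4. For Lifr it ran from -1.91 to -0.83, at least 2-fold lower in 3 of the 4 and not with no normalization. An added offset of 50, the mean of a gene's probes and the authors' table gave values inside these ranges for the same genes. The sign of Il6st, Socs3 and Osmr depended on the scaling: under median scaling over all gene probes Il6st gave -0.05 and Socs3 -0.18, and with no normalization Osmr gave 0.40. The median of all detected genes was itself -0.49 under median scaling over all gene probes and 0.67 with no normalization. Relative to it, Il6st gave 0.44 and 0.37, Socs3 0.31 and 0.24, and Osmr -0.20 and -0.27. In the authors' deposited table Il11 gave 3.34, Il6 2.82, Osm 0.91, Lifr -1.17, Socs3 0.48 and Osmr -0.03, the Il6st probes gave 0.63 and -0.41, and Lif, Il6ra and the dimmer Lifr probe had no value.

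**Figure D3:**
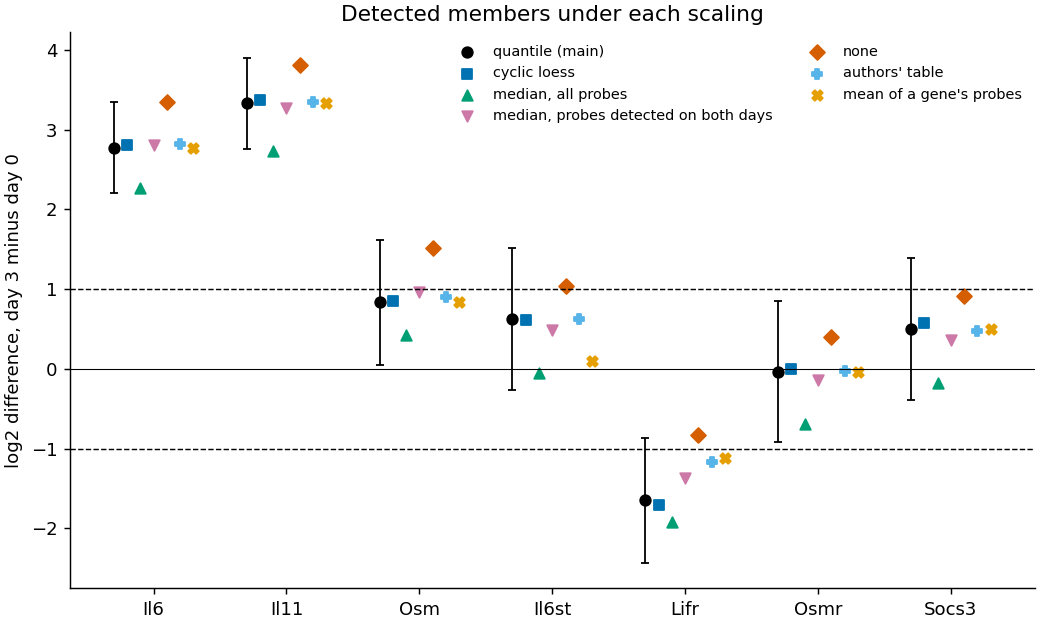
Log2 difference, day 3 minus day 0, of the 7 detected members under quantile normalization (black circles, with bars of 1 pooled technical SD either side) and 6 alternatives, with dashed lines at 2-fold. All symbols of Il11 and Il6 lie above 2-fold, those of Lifr lie below 0, and those of Il6st, Osmr and Socs3 fall on both sides of 0.

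The labelled cell type was checked against its markers. All 10 fibroblast markers examined were detected on both days, among them Col1a1, Col1a2, Pdgfra, Pdgfrb and Vim. Because immune and vessel cells also make cytokines of this family, their markers were read beside the Il6 and Il11 values. Of 9 macrophage markers, 4 were above the threshold on each day, and their summed signal was 17417 on day 0 and 43884 on day 3. A sum over probes mostly follows the brightest one, here Cd14, which read 16036 and 39699. Itgam read 703.5 and 3556 and Fcer1g 109.5 and 266, and these 3 markers were at least 2-fold higher on day 3. Cd68 read 198.5 and 268, and Csf1r read 269.5 and 51.5. The leukocyte marker Ptprc read 10, the floor, on both days, Adgre1 read 10 and 10.5, Tyrobp 14 and 10, and Lyz2 66 and 13.5. Of 4 T and B cell markers on the array, 2 were above the threshold on day 0 and 3 on day 3, with summed signals of 426 and 865.5, and of 5 endothelial markers, 2 and 1, with sums of 480.5 and 678.5. Among the latter Pecam1 read 189.5 and 568.5 and Kdr 168 and 17.5. None of 4 mast cell markers was detected, with sums of 53.5 and 90, and of 4 epithelial markers 1 was above the threshold on day 0 and 0 on day 3, with sums of 313.5 and 202. Of 8 adipocyte markers only Lpl was detected, saturated on day 3, and the sum was 8572 on day 0 and 59606 on day 3. Nearly all of that sum was Lpl, which read 8480 and 59293. Below the threshold, Adipoq read 12 and 120.5, Fabp4 10.5 and 59.5, Cidec 12 and 52.5, and Plin1 21.5 and 44. Lep read 10 and 15, Cd36 10.5 and 11.5, and Cfd 15.5 and 10. The part of any of these cell types in the Il6 and Il11 values was not tested, and in RNA from a whole culture fewer cells of a type and less RNA per cell cannot be told apart.

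The remaining ligands and receptors of the wider family were mostly dim. Most of them use gp130, whereas the IL-31 receptor subunit pairs with the product of Osmr instead. Of the 9 examined, 4 were detected, 1 of them at least 2-fold higher and 0 at least 2-fold lower on day 3, too few to set against the shares of all genes. That 1 was Il27, which encodes a subunit of IL-27 and read 119 on day 0, below the threshold, and 266 on day 3, at least 2.18-fold higher. Ebi3, its partner subunit, read 70.5 and 126, at least 1.03-fold higher. Ctf1, which encodes cardiotrophin 1, read 858.5 and 1399, a log2 difference of 0.70, and Clcf1, which encodes a cytokine that signals through the CNTF receptor, read 917.5 and 636, a difference of -0.53. Ctf2, Cntfr, Il27ra, Il31 and Il31ra were below the threshold on both days, and Cntf and Il11ra2 were not found under those names.

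Genes of gp130 signalling came next, a list that holds regulators such as other Socs genes as well as signal transducers. Of 22 detected genes of 25 listed, 2 stood at least 2-fold higher on day 3, 0 were at least 2-fold lower and 16 differed by less than 1.5-fold, with a median of 0.07. Of all detected genes, 12.8% were higher, 10.3% lower and 54.9% under 1.5-fold. The kinase gene Jak1 read 18795 and 13266 (-0.50), and Stat3, the main transcription factor of the pathway, read 19441 and 17161 (-0.18, and -0.12 by its other probe). The 4 largest differences were those of the kinase gene Tyk2 (1.36, but -0.14 by its other probe), the adaptor gene Gab1 (1.23), the phosphatase gene Ptpn2 (0.70) and Stat5b (-0.66). Under median scaling over all gene probes 0 of the 22 were at least 2-fold higher and 4 were lower, where 7.78% of all detected genes were higher and 24.3% lower.

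Genes known to respond to STAT3 went both ways. Of 22 detected of 25 listed, 5 were at least 2-fold higher on day 3 (4 when lower bounds are used) and 1 was at least 2-fold lower, beside 12.8% (10.2% with lower bounds) and 10.3% of all detected genes. The median was 0.29, and 0.51 without Saa3 and Lcn2, whose probes were saturated on at least 1 day. Batf, a transcription factor gene, read 27 on day 0, below the threshold, and 160.5 on day 3, at least 1.32-fold higher. The day 3 signal of Batf lay below 174.2, the level that 10% of the olfactory, vomeronasal and taste receptor probes exceeded that day. With detection set at that level of each day, 21 genes of the list were detected and 4 were at least 2-fold higher. Serpina3n, which encodes an acute phase protease inhibitor, read 1770 and 8223 (2.22), and the repressor gene Bcl6 read 3357 and 11529 (1.78). Myc, which drives cell growth, read 5110 and 1265 (-2.01, and -0.63 by its other probe). Saa3, which encodes a serum amyloid protein, was saturated on day 0 and on day 3, so that no difference could be read. Many of these genes answer to other factors too, and under median scaling over all gene probes 3 were higher and 5 lower, beside 7.78% and 24.3% of all genes.

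Genes known to act on Il6 transcription or on the stability of its messenger RNA formed the last list. Of 17 detected of 18 listed, 5 stood at least 2-fold higher on day 3 and 2 at least 2-fold lower, beside 12.8% and 10.3% of all detected genes, with a median of 0.15. Il1a, which encodes interleukin-1α, read 352 and 2233 (2.67, and 3.22 by its other probe), and the receptor gene Il1r1 read 982.5 and 4906 (2.32). Nfkbiz, which encodes a nuclear cofactor of NF-κB, read 645 and 1891 (1.55). Nr3c1, the gene of the glucocorticoid receptor, read 974.75 and 165.5 (-2.56). Cebpb read 23631 and 38178 (0.69). That lay above the technical SD of the median feature, 0.38, and within the pooled one of 0.89. The remaining genes past 2-fold were Crem (1.41), Zfp36 (1.14) and Arid5a, which was at least 2.28-fold lower. The NF-κB subunit genes Nfkb1 and Rela gave -0.32 and -0.21. The list was not sorted into activators and repressors. The part of any of these genes in the Il6 difference was not tested. Tnf was below the threshold on both days, with signals of 38 and 107.5.

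**Figure D4:**
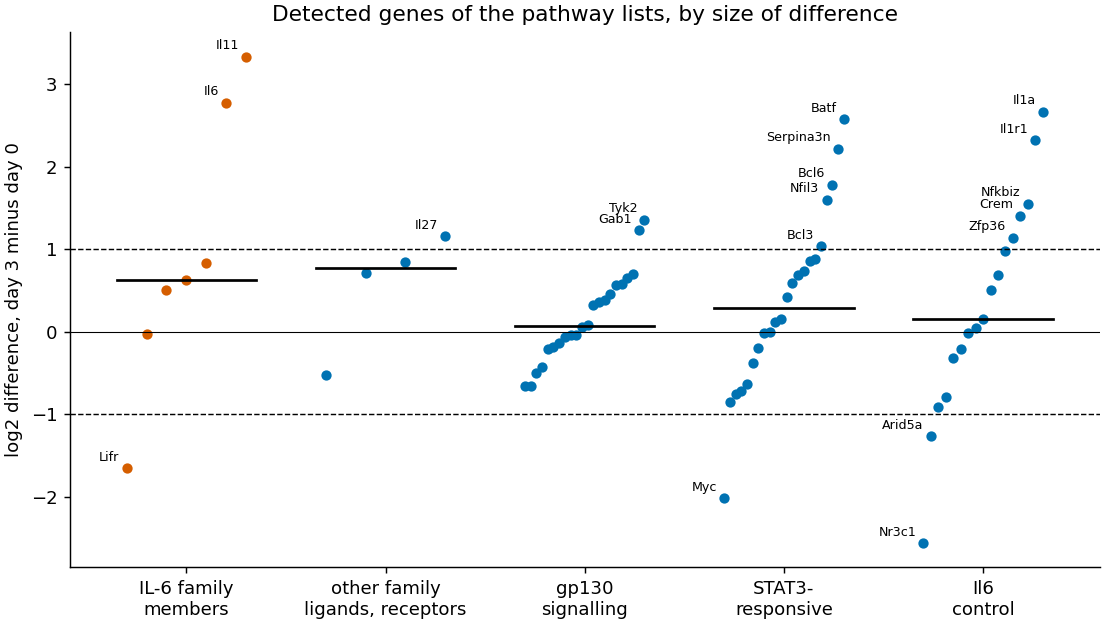
Log2 difference, day 3 minus day 0, of each detected gene of the family (orange, 7 genes) and of 4 related lists (blue), sorted within each list, with the list median as a bar and dashed lines at 2-fold. Il11 and Il6 lie highest, the gp130 signalling genes cluster around 0, and Il1a, Il1r1 and Nr3c1 lie farthest out among the genes that act on Il6. Differences are drawn as computed, also where a signal was below the threshold or saturated. Batf (2.57) and Arid5a (-1.27) therefore lie farther out than their lower bounds, and the saturated Saa3 is drawn at 0.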

How the data were processed

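RNA was measured in 1 culture sample per day on single-colour arrays (Cy5); per the labels' protocols, column-purified RNA was amplified and then labelled by the array company Phalanx. The deposited per-sample tables gave 1 intensity for each of 39200 spots, 7402 of them empty with a median of 0 on both days, so background appeared to be subtracted. The names of scanner and image software were not given in the sources used here. As an alternative, the authors' series table was taken, which held intensity values for 11482 of 29922 gene probes.

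The gene probes were quantile normalized (limma 3.58.1, R 4.3.3) and taken to log2 with a floor of 10. Signals of 65000 or more counted as saturated. Names came from the platform annotation, updated through a RefSeq gene table of GRCm38.p6, with 21020 probes named, and the brightest probe by mean log2 signal represented each gene. Folds against a signal under the threshold are lower bounds computed against it. The technical SD came from control features printed as 4 to 6 spots, 279 before filtering. A feature was left out on an array where a spot was saturated or its mean lay outside log2 6 to 16. The signal ranges from low to high held 50, 16, 28 and 77 features, so the pooled 0.78 rests on 16. The normalization code was run on simulated arrays with known changes and an even difference in brightness. Far fewer probes differed there than here, so that run does not show how well these arrays were normalized. The genes and lists were chosen with earlier results of these data known. Genes of the lists were named by a rule: every other family ligand and receptor examined (1 listed gene is not reported here), up to 4 detected genes per further list with the largest differences, Jak1, Stat3, Cebpb and Nr3c1 whatever their values, and the 3 genes nearest to Il6. The marker genes, Tnf, Saa3, Lcn2, Crem, Zfp36, Arid5a, Nfkb1 and Rela were named outside it, after their values were seen. With 1 array per day, the number of arrays limits the precision.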

Additional observations from a re-analysis of the deposited data

How the results depend on the processing

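The alternatives were 4 other scalings, an offset of 50, the mean of all probes, the authors' table, 4 other detection rules, and, chosen after seeing the data, low signals raised to the threshold and each scaling relative to the median of all detected genes. The count of 2 members higher and 1 lower was also found under all of these but 4. With no normalization 5 members were at least 2-fold higher and 0 lower, where 35.7% of all detected genes were higher and 2.85% lower, and relative to the median of all genes in that setting 3 were higher and 1 lower. With detection at the 99th percentile of empty spots, and with no detection filter, 4 were higher, because Lif (1.46) and Il6ra (1.15) then counted, and 1 was lower. None of the 3 members past 2-fold under quantile normalization (Il6, Il11 and Lifr) changed sign. Over the same alternatives the shares of all detected genes ran from 7.78% to 35.7% higher and from 2.85% to 24.3% lower. The other family ligands and receptors, 1 higher and 0 lower, ran from 0 to 4 higher and 0 to 1 lower. The gp130 signalling genes, 2 and 0, ran from 0 to 7 higher and 0 to 4 lower. The STAT3-responsive genes, 5 and 1, ran from 3 to 11 higher and 1 to 5 lower. The genes that act on Il6, 5 and 2, ran from 5 to 9 higher and 1 to 4 lower. No paired analysis was possible because each day was 1 array. No replicate could be left out for the same reason, and dim genes such as Lif and Il6ra were limited by signal over background.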
